A study of Mus musculus with 16 samples.

Results

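The circadian clock genes described here were the 10 core genes Arntl, Clock, Per1, Per2, Per3, Cry1, Cry2, Nr1d1, Nr1d2 and Dbp, taken by name from the 55487 genes of the count table. All 10 passed the filter on low counts, as did 12372 genes in all. RNA was sequenced from bone marrow-derived macrophages (BMDMs), primary macrophages grown from the marrow of 8 week old wild-type Balb/c mice, in 16 samples of 6 groups. The DMEM group (n = 2) received plain medium and the DMEM + Rux group (n = 3) plain medium with the JAK1/2 inhibitor ruxolitinib. The CM group (n = 3) received medium conditioned by 4T1 cells, a mouse mammary tumor line. The CM + Rux group (n = 3, labelled 4 h) received CM with 0.5 µM ruxolitinib, the CM + Rux 2 h group (n = 2) the same with a 2 h label, and the CM + Rux + IKK-16 group (n = 3) CM with 0.5 µM ruxolitinib and 0.8 µM IKK-16, an IKK inhibitor that blocks canonical NF-κB activation. The dose and time of ruxolitinib in plain medium were not given in the sources used here, nor was what the 2 h label counts from. All BMDMs came from 1 strain. Per the methods, they were serum starved for 2 h before CM, and ruxolitinib was added during this pre-treatment. The methods name RPMI for growing 4T1 cells and do not name the base medium of the CM. The part of any difference in base medium from DMEM in the changes with CM was not tested. For RNA the methods give 4 h with CM and ruxolitinib and name no 2 h treatment. The time of day of harvest was not given in the sources used here.

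The mammalian clock is a feedback loop of transcription that runs in nearly every cell, macrophages included. ARNTL (BMAL1) and CLOCK bind E-box elements and switch on the Per, Cry, Nr1d and Dbp genes, PER and CRY proteins then repress ARNTL and CLOCK, and the nuclear receptors NR1D1 and NR1D2 (REV-ERBα and REV-ERBβ) repress Arntl through ROR elements. In macrophages the clock is known for setting the daily level of inflammatory and chemokine responses, and the REV-ERB receptors are known as repressors of inflammatory genes.

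Clock proteins are known to act through short promoter elements, and 5 windows that held such letters are shown, so that each kind of element found appears at least once. The windows run from 250 bases before to 50 bases after an annotated RefSeq start (GRCm38.p6). The table held 13 windows for 9 of the 10 genes, all but Per2. The capitals mark an E-box (CACGTG), an E'-box (CACGTT, read on either strand, so AACGTG as well), a D-box (TTATGTAA or TTACGTAA, either strand) or a ROR element (RORE, either strand). Among all 32851 windows of this length, 7.15% held an E-box, 4.68% an E'-box, 1.06% a D-box and 0.384% a RORE. The sequences are given 5′ to 3′ on the strand of the gene.
Arntl, second window, RORE, chr7:113207261-113207560 (+): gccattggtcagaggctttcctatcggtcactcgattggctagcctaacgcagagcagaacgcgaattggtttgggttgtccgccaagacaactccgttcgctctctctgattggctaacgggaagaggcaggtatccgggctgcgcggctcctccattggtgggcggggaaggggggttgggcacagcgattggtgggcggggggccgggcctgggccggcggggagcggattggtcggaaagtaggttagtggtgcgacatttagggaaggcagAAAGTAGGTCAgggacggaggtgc
Per1, first window, E-box, chr11:69098699-69098998 (+): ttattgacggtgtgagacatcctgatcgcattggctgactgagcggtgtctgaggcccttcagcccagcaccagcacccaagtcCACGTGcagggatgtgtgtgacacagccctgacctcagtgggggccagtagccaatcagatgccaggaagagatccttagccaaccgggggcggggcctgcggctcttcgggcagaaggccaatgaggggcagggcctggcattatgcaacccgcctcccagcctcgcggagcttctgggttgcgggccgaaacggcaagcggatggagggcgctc
Per3, 2 D-boxes, chr4:151044616-151044915 (-): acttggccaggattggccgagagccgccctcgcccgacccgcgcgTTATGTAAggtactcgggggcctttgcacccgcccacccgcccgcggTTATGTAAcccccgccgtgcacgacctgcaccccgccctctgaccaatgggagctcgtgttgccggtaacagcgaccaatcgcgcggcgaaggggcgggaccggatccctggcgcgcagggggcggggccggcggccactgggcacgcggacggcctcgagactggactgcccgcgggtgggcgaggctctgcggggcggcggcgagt
Cry1, E'-box and E-box, chr10:85185005-85185304 (-): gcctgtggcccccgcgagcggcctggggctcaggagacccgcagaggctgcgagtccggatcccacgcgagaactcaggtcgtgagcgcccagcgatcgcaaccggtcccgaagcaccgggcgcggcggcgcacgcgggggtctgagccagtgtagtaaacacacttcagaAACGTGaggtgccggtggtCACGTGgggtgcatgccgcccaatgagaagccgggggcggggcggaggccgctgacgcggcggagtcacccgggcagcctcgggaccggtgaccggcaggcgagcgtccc
Nr1d1, E'-box, chr11:98775328-98775627 (-): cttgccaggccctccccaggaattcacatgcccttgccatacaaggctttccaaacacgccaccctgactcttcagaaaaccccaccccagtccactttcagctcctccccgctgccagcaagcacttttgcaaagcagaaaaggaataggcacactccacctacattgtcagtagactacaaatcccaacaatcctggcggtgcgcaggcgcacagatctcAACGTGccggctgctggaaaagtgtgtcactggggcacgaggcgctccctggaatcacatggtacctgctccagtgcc
Counted from the annotated start, the first base of the element lay at 26 in Arntl, at -166 in Per1, at -205 and -158 in Per3, at -79 and -60 in Cry1 and at -28 in Nr1d1. Of the 9 genes with a window, Per1 and Cry1 held an E-box, Cry1, Cry2 and Nr1d1 an E'-box, Per3 a D-box and Arntl a RORE. No window of the 9 held the cAMP response element TGACGTCA, which 1.79% of all windows did. Cry2, with an E'-box at -166, is not printed, and the searched letters were not in the windows of Clock, Nr1d2 and Dbp. A match describes these letters and no more.

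The samples held between 18449388 and 46215853 counted reads (median 31610906). Levels are given as CPM, read counts scaled to a common library size with relative log expression (RLE) factors, and a gene is called higher or lower at a Benjamini-Hochberg adjusted p under 0.05 in edgeR's quasi-likelihood test over all genes tested together with a log2 fold change beyond 0.5. RLE scaling placed the median gene 0.31 higher on the log2 scale in CM against DMEM than total counts alone did, and 0.30 higher in CM + Rux against DMEM + Rux, so changes with CM are relative to this scaling. All 8 macrophage markers were detected in every group, with a summed level of 40110 to 57130 CPM, while the 7 epithelial markers summed to at most 1.45 CPM and 7 neutrophil markers to at most 3.15 CPM. The epithelial sum was 0.773 to 1.45 CPM in CM against 0.0409 to 0.118 CPM in DMEM, and the neutrophil sum 1.72 to 3.15 CPM against 0.286 to 0.295 CPM. Of the neutrophil markers S100a8 reached 2.46 CPM and the others at most 0.712 CPM. The part of other cells in the results was not tested. Dendritic cell markers summed to 8.03 to 12.3 CPM in CM + Rux 2 h and to at most 2.14 CPM in the other groups. The 2 h sum was nearly all Zbtb46. Flt3, Xcr1 and Clec9a reached at most 0.167, 0.148 and 0.245 CPM in any sample. In bulk RNA, fewer cells of a type and less RNA per cell cannot be told apart.

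Tumor-conditioned medium moved most of the clock genes, and in both directions. Against DMEM, CM raised 5 of the 10 genes (Arntl, Per1, Cry1, Cry2 and Nr1d1) and lowered 3 (Per3, Nr1d2 and Dbp), beside 20.9% of all genes tested called higher and 24.1% called lower. In 9 of the 10 genes, all but Clock, the CM and DMEM samples did not overlap, which was also so for 74.8% of all genes tested. The median log2 fold change over the 10 genes was 0.55, beside -0.0050 over all genes tested. With ruxolitinib in both media, the same 5 genes were higher and the same 3 lower in CM + Rux against DMEM + Rux, beside 22.3% of all genes called higher and 25.0% called lower, with a median of 0.69 over the 10. Here too 9 of the 10 did not overlap, beside 70.0% of all genes tested. The plot of CPM by sample shows each gene.

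**Figure D1:**
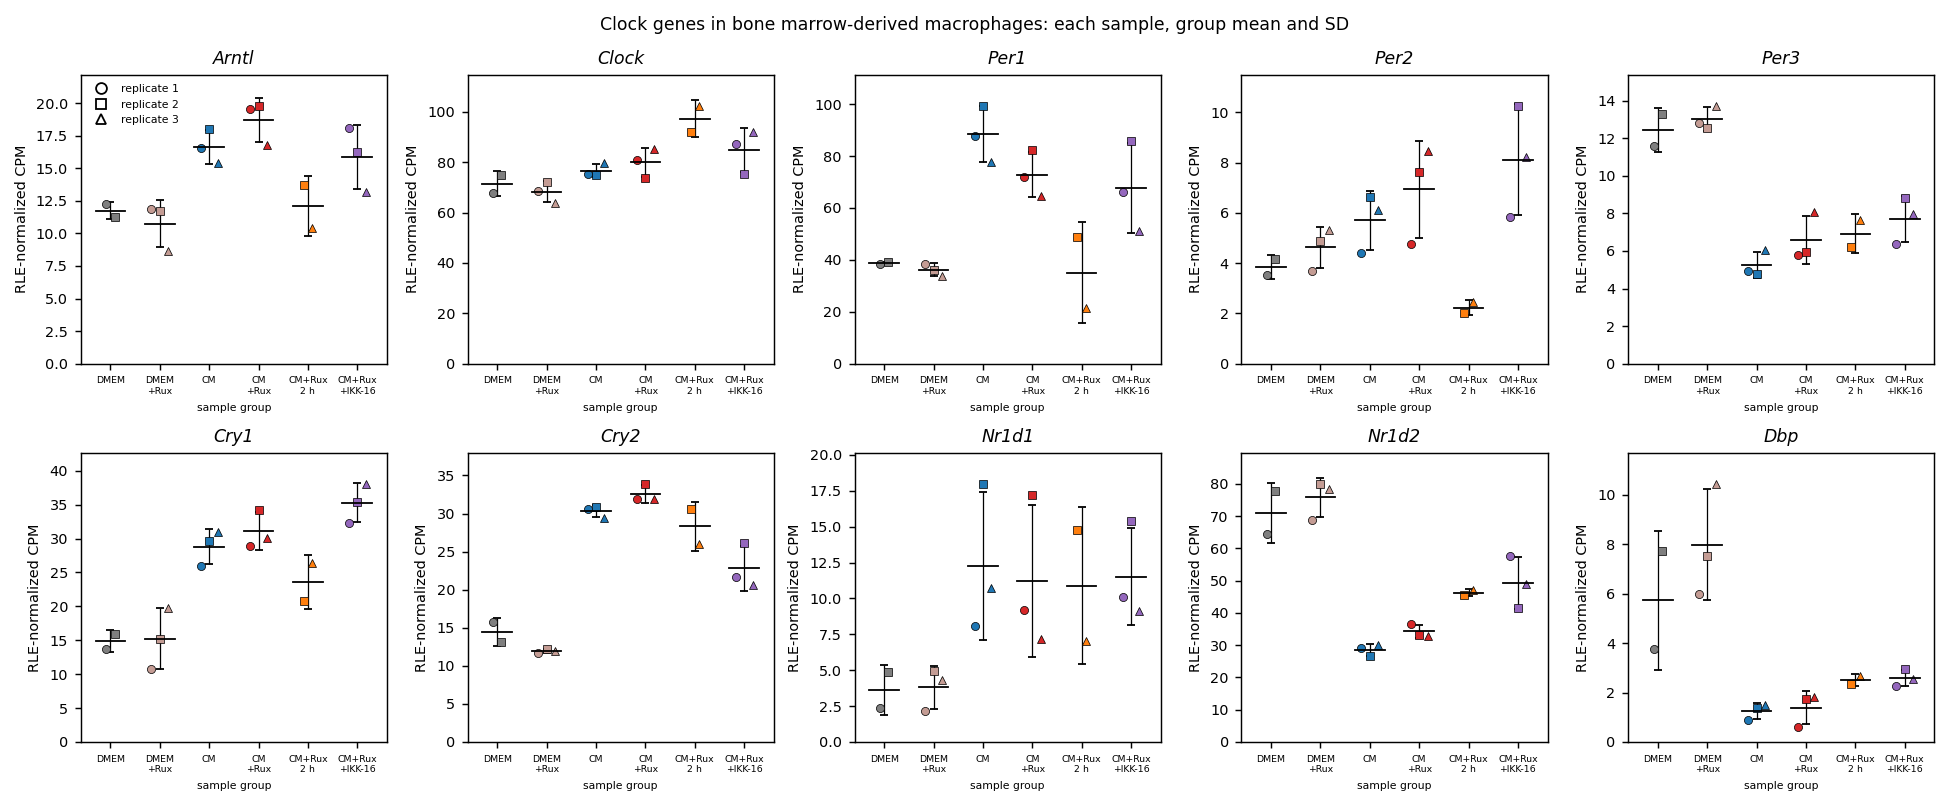
RLE-normalized CPM (y axis, linear from 0) of the 10 clock genes in each sample of the 6 groups (x axis); point shapes give the replicate number, the bar the group mean and the whisker the SD. Nr1d2 lies between 64.5 and 80.0 CPM in both DMEM groups and at or below 57.7 CPM in all groups with CM, whereas Cry2 is at or below 15.8 CPM in both DMEM groups and at or above 20.6 CPM in all groups with CM.

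Among the activators, Arntl, which encodes BMAL1, CLOCK's partner in the activating dimer, rose and Clock was not called. Arntl (ENSMUSG00000055116, chromosome 7, 113207465 to 113314126, + strand) stood at 12.2 and 11.3 CPM in the 2 DMEM samples and at 16.6, 18.0 and 15.4 CPM in CM. The change was 0.50 ± 0.17 (log2, SE, adjusted p = 0.018 by edgeR), right at the fold threshold. With ruxolitinib the samples stood at 11.9, 11.7 and 8.67 CPM in plain medium and at 19.6, 19.8 and 16.8 CPM in CM. The groups did not overlap in either pair, and the second change was 0.80 ± 0.15 (adjusted p = 0.00026, edgeR). In CM against DMEM the call for Arntl was lost with total counts alone (0.19), with TMM factors (0.49), without CM replicate 2 (0.44) and without DMEM replicate 2 (0.45). Clock (ENSMUSG00000029238, chromosome 5, 76209868 to 76304792, - strand), the partner, which is also a histone acetyltransferase, measured 68.0 and 75.1 CPM in DMEM and 75.3, 75.0 and 79.7 CPM in CM. These groups overlapped, and the change was 0.10 with a 95% interval of -0.11 to 0.31. With ruxolitinib Clock measured 68.8, 72.3 and 64.0 CPM in plain medium and 81.0, 73.8 and 85.2 CPM in CM. That difference of 0.23 ± 0.09 had an adjusted p of 0.031 (edgeR) but stayed under the fold threshold, and the direction of both changes flipped with total counts alone (-0.21 and -0.07).

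The 3 Period genes, whose proteins form the repressor complex with the cryptochromes, did not move together. Per1 (ENSMUSG00000020893, chromosome 11, 69095217 to 69109960, + strand), also known as an immediate responder to cAMP and glucocorticoid signals, stood at 38.5 and 39.1 CPM in DMEM and at 87.7, 99.5 and 77.9 CPM in CM. It was 2.28-fold higher (log2 1.19 ± 0.27, adjusted p = 0.0016, edgeR). With ruxolitinib it went from 38.6, 36.3 and 33.6 CPM in plain medium to 71.8, 82.2 and 64.7 CPM in CM. Every CM sample was thus above every DMEM sample, and the second change was 1.01 ± 0.23 (adjusted p = 0.0016, edgeR). Per3 (ENSMUSG00000028957, chromosome 4, 151003652 to 151044665, - strand), the period gene that the core loop is known to need least, went the other way. It stood at 11.6 and 13.3 CPM in DMEM and at 4.95, 4.78 and 6.06 CPM in CM, 2.36-fold lower (log2 -1.24 ± 0.17, adjusted p = 3.1e-05, edgeR). With ruxolitinib, 12.8, 12.5 and 13.7 CPM in plain medium compared with 5.79, 5.95 and 8.08 CPM in CM, a change of -0.99 ± 0.16 (adjusted p = 6.3e-05, edgeR). The low values of Per3 were those of the CM samples in both pairs, without overlap.

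Per2 (ENSMUSG00000055866, chromosome 1, 91415982 to 91459324, - strand), a core repressor of the loop, was less certain in its change. It stood at 3.51 and 4.17 CPM in DMEM and at 4.39, 6.62 and 6.10 CPM in CM. Although these did not overlap, the difference of 0.59 ± 0.28 was not called (adjusted p = 0.088, edgeR). With ruxolitinib it stood at 3.69, 4.86 and 5.31 CPM in plain medium and 4.77, 7.62 and 8.44 CPM in CM, which overlapped. That difference of 0.57 ± 0.24 was not called (adjusted p = 0.054, edgeR), and it was called with the replicate number as a block, the numbers being paired across groups (0.57, adjusted p = 0.0012). Per2 was also called in that comparison by DESeq2 (0.57, adjusted p = 0.040) and without the filter on low counts (0.58). Leaving out 1 sample brought the call in 4 cases, the value being 0.78 without CM + Rux replicate 1 and 0.57 without CM replicate 1, CM + Rux + IKK-16 replicate 1 or CM + Rux + IKK-16 replicate 2. In CM against DMEM it was called without CM replicate 1 (0.73) and without the filter on low counts (0.59).

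Both cryptochrome genes, which encode the repressors that bind the CLOCK and ARNTL dimer, rose. Cry1 (ENSMUSG00000020038, chromosome 10, 85131700 to 85185064, - strand) stood at 13.7 and 15.99 CPM in DMEM and at 25.9, 29.6 and 31.0 CPM in CM, 1.94-fold higher (log2 0.96 ± 0.19, adjusted p = 0.00067, edgeR). Cry2 (ENSMUSG00000068742, chromosome 2, 92403646 to 92434043, - strand) stood at 15.8 and 13.2 CPM in DMEM and at 30.6, 30.9 and 29.5 CPM in CM, 2.09-fold higher (log2 1.06 ± 0.11, adjusted p = 2.4e-06, edgeR). No CM sample of either gene overlapped a DMEM sample. With ruxolitinib Cry1 went from 10.8, 15.2 and 19.7 CPM to 28.9, 34.2 and 30.0 CPM (1.02 ± 0.17, adjusted p = 0.00010, edgeR). Cry2 went from 11.7, 12.2 and 11.9 CPM to 31.9, 33.9 and 31.9 CPM (1.45 ± 0.10, adjusted p = 2.4e-08, edgeR). The 3 samples of Cry2 lay close together in each of these groups, while Cry1 spread from 10.8 to 19.7 CPM in DMEM + Rux.

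The REV-ERB pair split. Nr1d1 (ENSMUSG00000020889, chromosome 11, 98767932 to 98775333, - strand), which encodes REV-ERBα, stood at 2.36 and 4.87 CPM in DMEM and at 8.06, 18.0 and 10.7 CPM in CM, 3.49-fold higher (log2 1.80 ± 0.51, adjusted p = 0.0075, edgeR). Nr1d2 (ENSMUSG00000021775, chromosome 14, 18204054 to 18239127, - strand), which encodes REV-ERBβ, stood at 64.5 and 77.7 CPM in DMEM and at 29.1, 26.5 and 30.1 CPM in CM, 2.49-fold lower (log2 -1.32 ± 0.12, adjusted p = 8.0e-07, edgeR). Both genes were without overlap between the groups. With ruxolitinib Nr1d1 went from 2.12, 4.97 and 4.33 CPM to 9.22, 17.2 and 7.17 CPM (1.53 ± 0.43, adjusted p = 0.0064, edgeR). Nr1d2 went from 68.9, 80.0 and 78.4 CPM to 36.7, 33.2 and 32.9 CPM (-1.15 ± 0.11, adjusted p = 7.7e-07, edgeR). The sample numbered 2 held the highest Nr1d1 value in each of the 6 groups, and without DMEM replicate 1 the call in CM against DMEM was lost (1.35, adjusted p = 0.092, edgeR), while without DMEM replicate 2 the change was 2.39.

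Dbp (ENSMUSG00000059824, chromosome 7, 45705088 to 45710203, + strand), an output gene whose PAR bZIP protein acts through D-boxes, fell furthest among the 10 genes. It stood at 3.75 and 7.73 CPM in DMEM and at 0.889, 1.37 and 1.51 CPM in CM. These CM values rested on 16, 46 and 37 reads. The change was 4.44-fold lower (log2 -2.15 ± 0.40, adjusted p = 0.00034, edgeR). With ruxolitinib 5.998, 7.52 and 10.4 CPM compared with 0.620, 1.72 and 1.83 CPM (-2.56 ± 0.36, adjusted p = 2.4e-05, edgeR). Neither pair of groups overlapped, and without DMEM replicate 2 the first change was -1.55.

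Ruxolitinib itself moved none of the 10 genes past the thresholds, in either medium. In CM + Rux against CM, 0 of 10 were called (1 at an unadjusted p under 0.05), beside 3.33% of all genes tested, and DESeq2 called 0 as well. In DMEM + Rux against DMEM, 0 of 10 were called (1 at an unadjusted p under 0.05; 0 by DESeq2), beside 0.970% of all genes tested. The groups did not overlap for 2 of the 10 in CM and 1 in plain medium, beside 19.2% and 18.5% of all genes tested. The gene with the unadjusted p in CM was Nr1d2, whose CM + Rux samples (32.9 to 36.7 CPM) all lay above its CM samples (26.5 to 30.1 CPM). That difference of 0.26 ± 0.11 had an adjusted p of 0.27 (edgeR). In plain medium the gene was Cry2, at 11.7 to 12.2 CPM with ruxolitinib and 13.2 and 15.8 CPM without (-0.28 ± 0.11, adjusted p = 0.76, edgeR). The 95% intervals in CM were narrow for Clock (-0.12 to 0.24) and Cry2 (-0.10 to 0.31) and wide for Nr1d1 (-1.01 to 0.75) and Dbp (-0.79 to 0.95), and changes of these genes inside their intervals could not be told from none. The difference of the ruxolitinib effect between the 2 media was called for 0 of 10 (1 at an unadjusted p under 0.05; 0 by DESeq2), beside 0.412% of all genes tested, with Cry2 at 0.38 ± 0.15 (adjusted p = 0.37, edgeR).

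**Figure D2:**
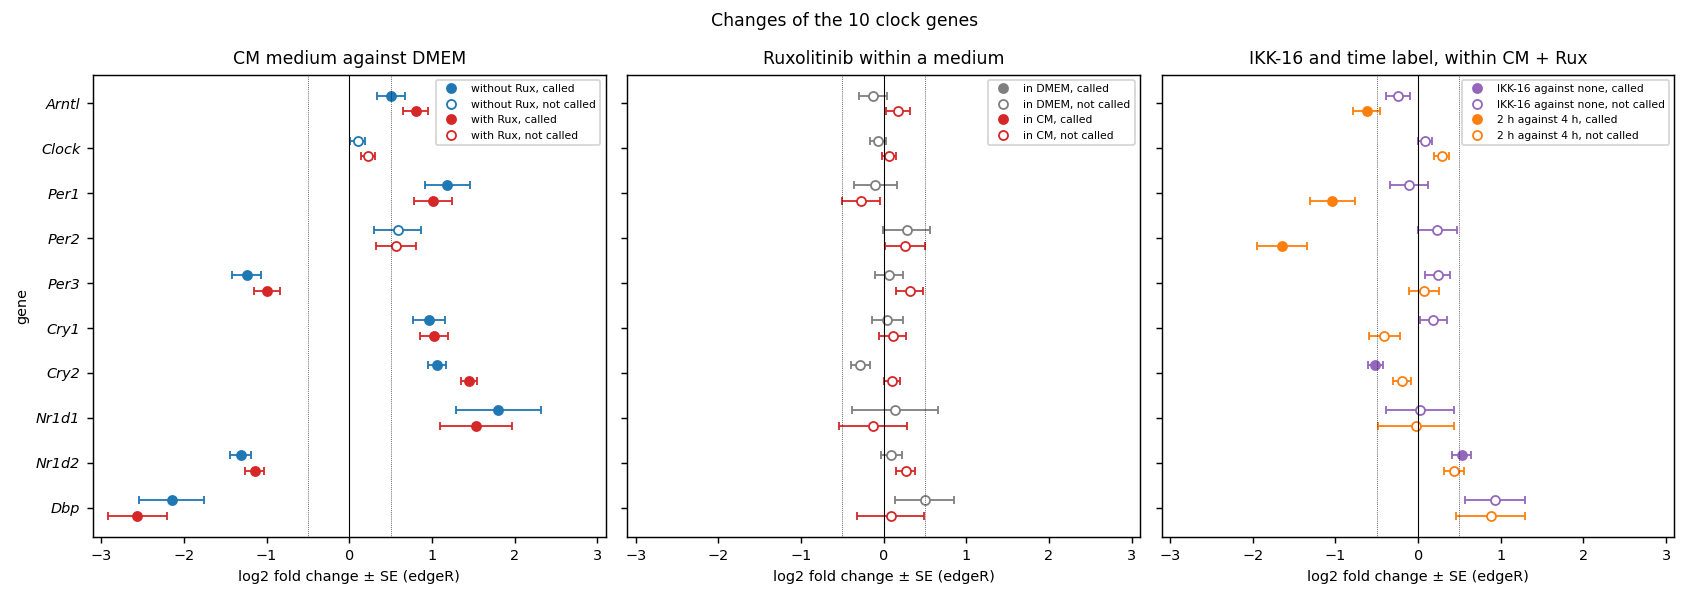
Log2 fold change with its SE (x axis) of the 10 clock genes (y axis) in 6 comparisons; filled points are called and open points are not, and dotted lines mark the fold threshold of 0.5 either way. In the left panel Per3, Nr1d2 and Dbp lie left of 0 and Arntl, Per1, Cry1, Cry2 and Nr1d1 right of it, while every point of the middle panel is open.

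Blocking IKK on top of ruxolitinib in CM moved 2 of the 10 genes, each by little more than the fold threshold. In CM + Rux + IKK-16 against CM + Rux, Nr1d2 was higher and Cry2 lower, beside 4.07% of all genes called higher and 3.66% called lower. Nr1d2 stood at 57.7, 41.5 and 48.8 CPM with IKK-16, against 36.7, 33.2 and 32.9 CPM without (0.53 ± 0.11, adjusted p = 0.0068, edgeR). Cry2 stood at 21.6, 26.1 and 20.6 CPM with IKK-16, against 31.9, 33.9 and 31.9 CPM without (-0.52 ± 0.10, adjusted p = 0.0032, edgeR). In both genes, and in 3 of the 10 with Dbp, the groups did not overlap, beside 31.5% of all genes tested. The IKK-16 samples of Nr1d2 and Cry2 lay between the CM + Rux and the DMEM + Rux samples. How many of all genes did so was not computed. Dbp stood at 2.27, 2.93 and 2.56 CPM with IKK-16, above all 3 CM + Rux samples, but its difference of 0.93 ± 0.37 was not called (adjusted p = 0.11, edgeR). With the replicate number as a block Dbp was called (0.97, adjusted p = 0.0063), and without the filter on low counts as well (0.93). The other 7 genes had log2 differences between -0.24 (Arntl) and 0.23 (Per3) and overlapping groups.

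The IKK-16 calls rested on single samples for their place beyond the fold threshold, not on the adjusted p. Cry2 came to -0.49 without CM + Rux replicate 2, to -0.48 without CM + Rux + IKK-16 replicate 1, to -0.45 without CM + Rux + IKK-16 replicate 3 and to -0.43 with total counts alone, with adjusted p of 0.014, 0.020, 0.017 and 0.0066 (edgeR). Nr1d2 came to 0.50 without CM + Rux replicate 2 or 3, just under the threshold, and to 0.40 without CM + Rux + IKK-16 replicate 1, with adjusted p of 0.028, 0.026 and 0.034 (edgeR).

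The samples labelled 2 h had lower Arntl, Per1 and Per2 than those labelled 4 h, both in CM with ruxolitinib. The 3 genes were the ones called among the 10, beside 12.6% of all genes called higher and 10.7% called lower in CM + Rux 2 h against CM + Rux. The groups did not overlap for 8 of the 10, beside 59.6% of all genes tested. Per2 stood at 2.01 and 2.45 CPM at 2 h, below every sample of every other group, and at 4.77, 7.62 and 8.44 CPM at 4 h (-1.65 ± 0.31, adjusted p = 0.00095, edgeR). Per1 stood at 48.8 and 21.4 CPM at 2 h and at 71.8, 82.2 and 64.7 CPM at 4 h (-1.04 ± 0.27, adjusted p = 0.0076, edgeR). The 2 samples at 2 h differed more than 2-fold in Per1, from above the DMEM range to below it. Arntl stood at 13.7 and 10.4 CPM at 2 h and at 19.6, 19.8 and 16.8 CPM at 4 h (-0.62 ± 0.17, adjusted p = 0.0097, edgeR). Without CM + Rux 2 h replicate 2 Per1 came to -1.77. Without CM + Rux 2 h replicate 3 neither Per1 (-0.58, adjusted p = 0.078, edgeR) nor Arntl (-0.45, adjusted p = 0.12, edgeR) was called.

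Nr1d2 and Clock were higher at 2 h with an adjusted p under 0.05 but under the fold threshold. Nr1d2 stood at 45.6 and 47.1 CPM, between the 4 h samples and the DMEM + Rux samples (0.43 ± 0.12, adjusted p = 0.014, edgeR). Clock stood at 92.1 and 103 CPM, above all 3 samples at 4 h (0.28 ± 0.09, adjusted p = 0.030, edgeR). With the replicate number as a block, 5 of the 10 genes were called, Cry1 being lower (-0.52, adjusted p = 0.0054) and Dbp higher (0.68, adjusted p = 0.048) in addition. Without the block Cry1 (20.7 and 26.4 CPM at 2 h) had a difference of -0.41 ± 0.19 and Dbp (2.35 and 2.69 CPM) one of 0.88 ± 0.42, with adjusted p of 0.10 and 0.11 (edgeR). Dbp was also called without the filter on low counts (0.88, adjusted p = 0.042, edgeR). Per3, Cry2 and Nr1d1 were not called. Only the CM + Rux and CM + Rux 2 h groups carried a time label. The DMEM groups, CM and CM + Rux + IKK-16 carried none, so no plain-medium sample was matched by label to the 2 h samples. The ruxolitinib and IKK-16 comparisons were likewise not matched by a time label.

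Ordered by mean level, the groups fell into different orders for different genes. For Nr1d2 the order from low to high was CM, CM + Rux, CM + Rux 2 h, CM + Rux + IKK-16, DMEM and DMEM + Rux. CM did not overlap CM + Rux, CM + Rux did not overlap CM + Rux 2 h, and CM + Rux + IKK-16 did not overlap DMEM, while the other neighbours did overlap. For Dbp the order was the same, with gaps between CM + Rux and CM + Rux 2 h and between CM + Rux + IKK-16 and DMEM. Per3 had this order too, with 1 gap, between CM + Rux + IKK-16 and DMEM. Cry2 ran from DMEM + Rux and DMEM through CM + Rux + IKK-16, CM + Rux 2 h and CM to CM + Rux, and only CM + Rux + IKK-16 with CM + Rux 2 h and CM + Rux 2 h with CM overlapped among neighbours. Per1 had 1 gap, between DMEM (39.1 CPM at most) and CM + Rux + IKK-16 (51.1 CPM at least), with CM + Rux 2 h lowest in mean, and Per2 had 1 gap, between CM + Rux 2 h and DMEM. For Cry1 and Nr1d1 the gap lay between the DMEM groups and the rest, and for Arntl and Clock all neighbours overlapped. Over all genes tested, CM and CM + Rux did not overlap for 19.2%, and DMEM and DMEM + Rux for 18.5%. CM + Rux and CM + Rux 2 h did not overlap for 59.6%. Shares for the other neighbours with a gap were not computed.

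Per length of exonic sequence, the ranking among the clock genes changed with the medium. In DMEM the level in RPKM, which divides the CPM by the exonic length in kilobases, was highest for Nr1d2 (13.1 ± 1.7, SD, n = 2), followed by Per1 (6.90 ± 0.08), Clock (5.21 ± 0.37) and Cry1 (4.45 ± 0.48), and lowest for Per2 (0.656 ± 0.079). In CM it was highest for Per1 (15.7 ± 1.9, SD, n = 3), followed by Cry1 (8.63 ± 0.78), with Clock (5.59 ± 0.19) and Nr1d2 (5.28 ± 0.34) close together. The lowest 2 in CM were Per3 (0.548 ± 0.073) and Dbp (0.419 ± 0.108). Nr1d1 rose from 1.17 ± 0.58 to 3.99 ± 1.67 RPKM, so that the mean level of Nr1d2 was 11.2-fold that of Nr1d1 in DMEM and 1.33-fold in CM. Within the samples it was 15.5-fold and 9.08-fold in DMEM and 2.06-fold, 0.839-fold and 1.59-fold in CM, so that in CM replicate 2 Nr1d1 was the higher of the pair.

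The balance within each gene family was also read as the log2 ratio of 2 genes' read counts in the same sample, which does not depend on scaling between samples. All 5 pairs within the Period, Cryptochrome and REV-ERB families were tested between the CM and DMEM media, without and with ruxolitinib, by a two-sided exact permutation test within the 2 ruxolitinib strata (200 arrangements, smallest possible p = 0.005). These pairs were added after the values of the genes had been seen. The Nr1d1/Nr1d2 ratio stood at -4.76 and -3.99 in DMEM and at -1.85, -0.56 and -1.48 in CM, and the shift averaged 2.88 over both strata (p = 0.005, adjusted over the 5 pairs 0.0083, exact permutation). Per1/Per3 shifted by 2.21 and Per2/Per3 by 1.68 (each p = 0.005, adjusted 0.0083, exact permutation), and in these 3 pairs the media did not overlap in either stratum. In Nr1d1/Nr1d2 and Per1/Per3 the 2 genes had each moved in opposite directions without overlap in both strata. In Per2/Per3 the fall of Per3 was enough to part the media, given the ranges of both genes. With ruxolitinib Per2 stood at 3.69 to 5.31 CPM in plain medium and at 4.77 to 8.44 CPM in CM. Per3 stood there at 12.5 to 13.7 CPM and at 5.79 to 8.08 CPM. The smallest p was thus fixed beforehand for these 3 ratios. It adds nothing to the calls of the single genes and shows no change of Per2. Per1/Per2 shifted by 0.54 (p = 0.040, adjusted 0.050, exact permutation), with overlap in the stratum with ruxolitinib, and its p was between 0.050 and 0.10 (exact permutation) without DMEM replicate 2, DMEM + Rux replicate 2 or 3, CM replicate 1 or 2, or CM + Rux replicate 1 or 2. Cry1/Cry2 shifted by -0.25 (p = 0.155, adjusted 0.155, exact permutation), from -0.20 and 0.28 in DMEM to -0.24, -0.06 and 0.07 in CM. Without DMEM + Rux replicate 1 the Cry1/Cry2 shift was -0.35 with p = 0.040 (exact permutation). This test does not use the pairing of replicate numbers across groups. Between samples of the same number, all 5 differences were positive for Per1/Per2 (0.27 to 0.86) and all 5 negative for Cry1/Cry2 (-0.81 to -0.03), and all 5 were positive in each of the other 3 pairs. A two-sided exact sign-flip test over these 5 differences gave p = 0.0625 for each pair, the smallest it can give, so that no pair could pass 0.05 this way. At 2 h the Per2/Per3 ratio was -1.62 and -1.63, inside the range of the DMEM + Rux samples (-1.79 to -1.36).

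**Figure D3:**
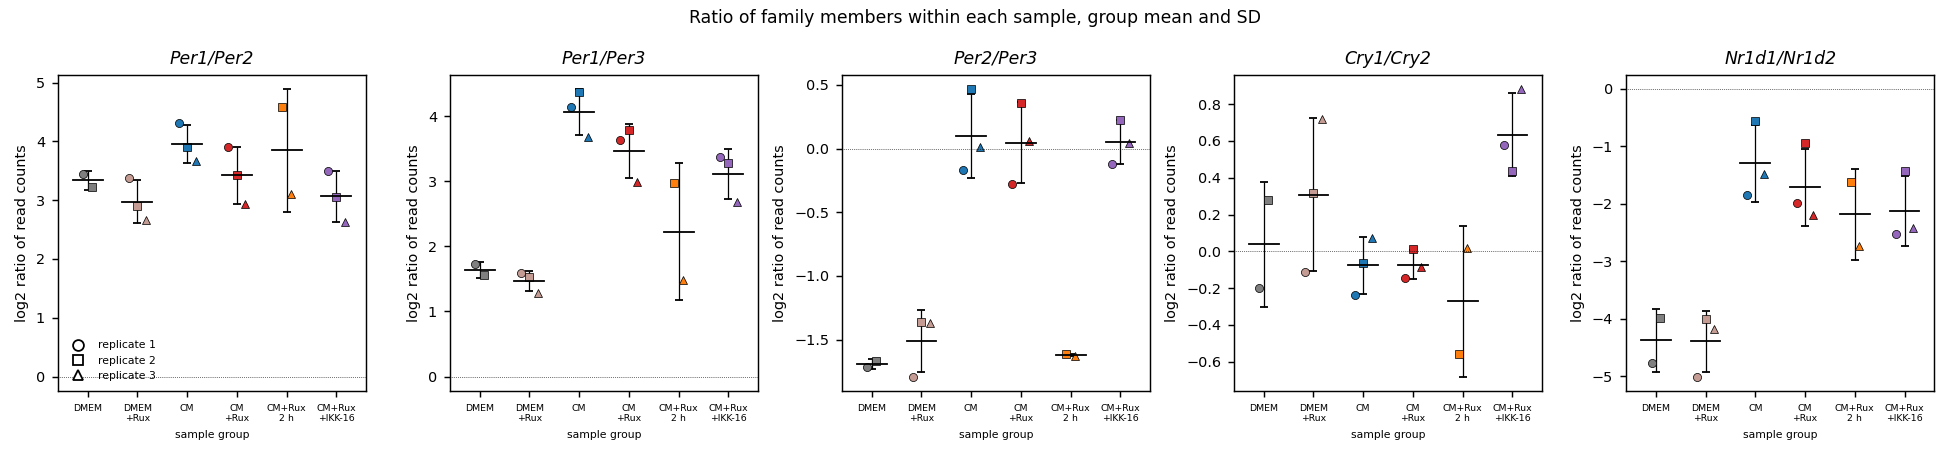
Log2 ratio of read counts of 2 genes of one family within each sample (y axis) by sample group (x axis), with the group mean and SD; point shapes give the replicate number. The Nr1d1/Nr1d2 ratios lie at or below -3.99 in both DMEM groups and at or above -2.74 in all groups with CM, and the Per2/Per3 ratios of the CM + Rux 2 h samples lie with the DMEM groups.

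Genes around the core loop were called in both directions, in CM at shares close to those of all genes. Of 31 other clock genes listed, 27 were tested (Arntl2, Rorb, Fbxl21 and Hlf were not), and in CM against DMEM 6 were higher (22.2%, beside 20.9% of all genes) and 8 lower (29.6%, beside 24.1%), with a median of 0.03. In CM + Rux against DMEM + Rux 7 were higher (25.9%, beside 22.3%) and 8 lower (29.6%, beside 25.0%). Nfil3, the D-box repressor that competes with DBP, stood at 17.5 and 11.5 CPM in DMEM and at 301, 347 and 261 CPM in CM (4.38 ± 0.35, adjusted p = 1.8e-07, edgeR). Bhlhe40 (DEC1), an E-box repressor, stood at 14.0 and 17.1 CPM in DMEM and at 90.7, 146 and 93.8 CPM in CM (2.83 ± 0.33). Its paralog Bhlhe41 (DEC2) went the other way, from 86.7 and 111 CPM to 24.5, 21.6 and 39.6 CPM (-1.79 ± 0.34). Ciart, which encodes a further repressor of the CLOCK and ARNTL dimer, rose by 2.48 ± 0.35 on the log2 scale. The other 3 higher genes were Noct (2.03), a rhythmic gene for an enzyme that dephosphorylates NADP(H), Nampt (1.04), the rate-limiting enzyme of NAD salvage, and Csnk1a1 (0.90), a casein kinase.

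The lower genes included relatives of the members. Npas2, the paralog of Clock, had 31 and 38 reads in DMEM and 0, 3 and 3 in CM, a fitted log2 change of -3.89 ± 0.51 whose size depends on the prior count. Rora, the activator that opposes the REV-ERB receptors at ROR elements, stood at 25.5 and 34.5 CPM in DMEM and at 12.7, 14.5 and 15.02 CPM in CM (-1.09 ± 0.17, adjusted p = 0.00010, edgeR). Tef, a PAR bZIP relative of Dbp, fell by 0.97 on the log2 scale, and Wee1, a cell cycle kinase known as a clock output, by 1.90. Timeless (-1.28), Cipc (-1.25) and Usp2 (-1.19) completed the 8. Without DMEM replicate 2 the calls of Timeless (-0.61) and Usp2 (-0.76) were lost. In CM + Rux against DMEM + Rux, Timeless (-0.83) lost its call without CM + Rux replicate 1, 2 or 3 or DMEM + Rux replicate 2 (-0.66 to -0.88), and Prkaa1 (0.57), the seventh gene called higher there, with total counts alone (0.27). Ruxolitinib brought 0 calls among the 27 in either medium (1 at an unadjusted p under 0.05 in CM and 1 in DMEM), beside 3.33% of all genes in CM and 0.970% in DMEM, and DESeq2 called 0 as well, so Npas2, Rora, Bhlhe40, Bhlhe41, Nfil3, Tef and Ciart were not called there.

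**Figure D4:**
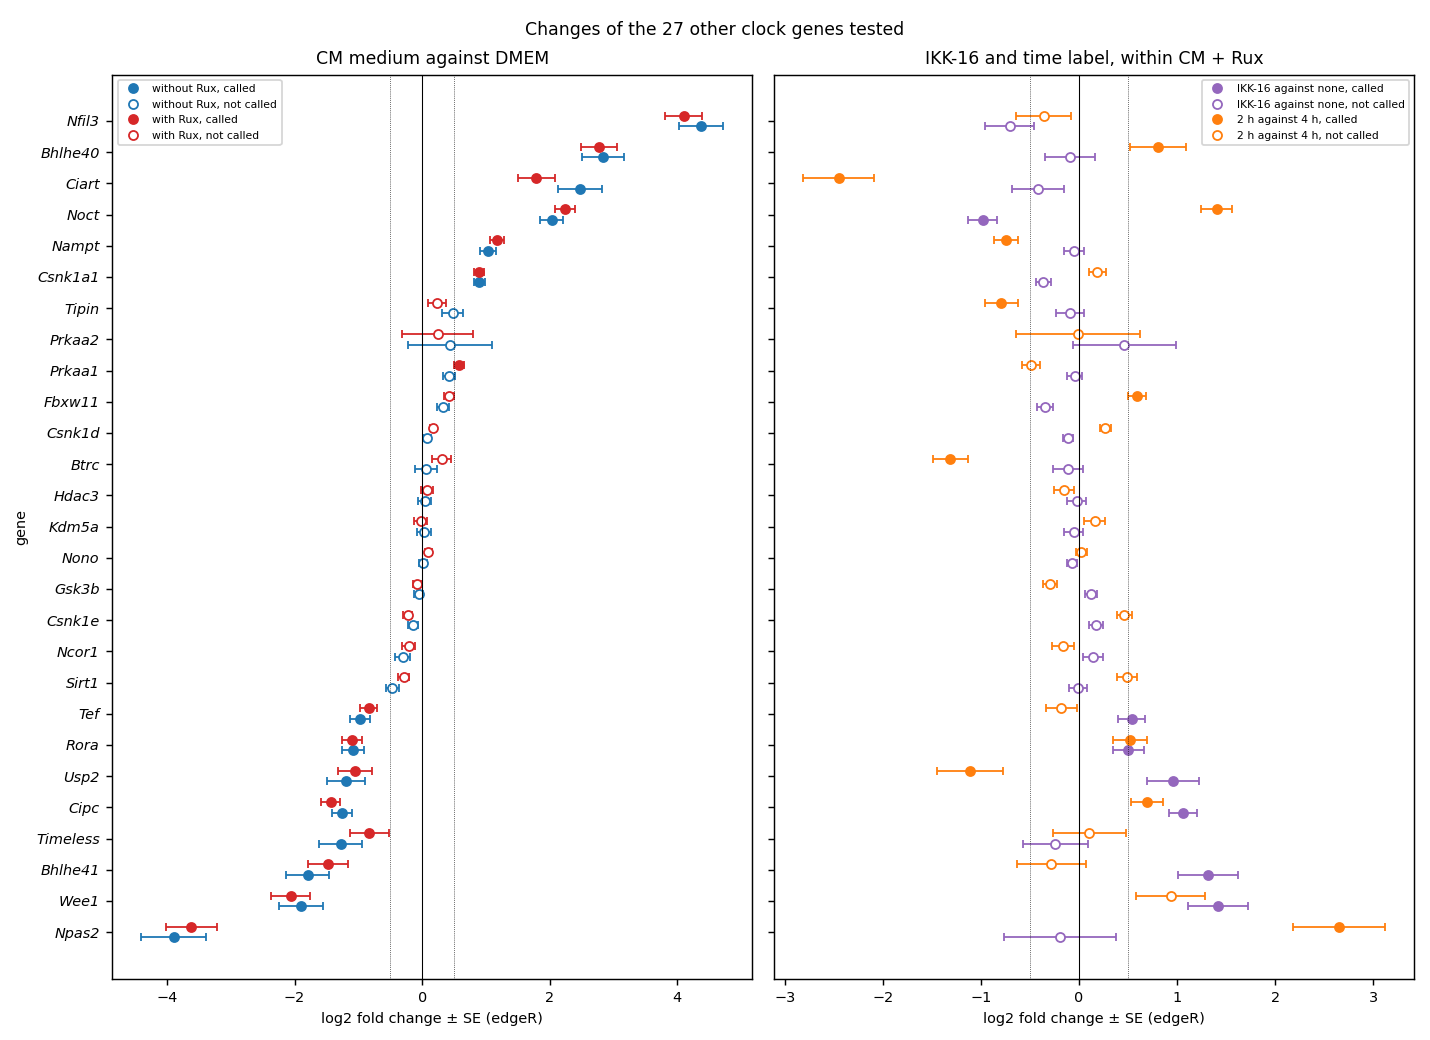
Log2 fold change with its SE (x axis) of the 27 other clock genes tested (y axis, ordered by the change in CM against DMEM); filled points are called, and dotted lines mark the fold threshold of 0.5 either way. Nfil3 at 4.38 and Bhlhe40 at 2.83 stand at the top of the left panel and Npas2, at 3 reads or fewer per CM sample, at the bottom, while Ciart at -2.45 is the leftmost 2 h point of the right panel.

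With IKK-16, 6 of the 27 other clock genes were higher (22.2%, beside 4.07% of all genes) and 1 lower (3.7%, beside 3.66%). Bhlhe41 stood at 113, 75.0 and 120 CPM with IKK-16 and at 36.8, 29.0 and 58.4 CPM without (1.32 ± 0.31, adjusted p = 0.011, edgeR). Wee1 (1.41) and Cipc (1.06), which encodes a CLOCK-interacting repressor, were the other 2 with a large rise. Usp2 (0.95), Tef (0.54) and Rora (0.50) were also called higher, and Noct was lower (-0.98 ± 0.15, adjusted p = 0.00082, edgeR). All 6 of the higher genes had been lower in CM against DMEM. How often this held among all genes called higher with IKK-16 was not computed. The calls of Rora, Tef and Usp2 were each lost without some single sample. Rora (0.50, adjusted p = 0.047, edgeR) kept its call in 8 of 24 alternatives. It was not called with the replicate number as a block (0.49), in limma-voom (0.49), in a fit to the compared groups alone or with edgeR's own filter (both 0.50), nor when any 1 sample of CM, DMEM + Rux or CM + Rux 2 h, CM + Rux replicate 2 or 3, or CM + Rux + IKK-16 replicate 1 or 3 was left out (0.37 to 0.50). Tef was not called without CM + Rux replicate 1 (0.46) or CM + Rux + IKK-16 replicate 1 (0.55, adjusted p = 0.051, edgeR), nor Usp2 without CM + Rux replicate 1 (0.83) or 2 (0.85) or CM + Rux + IKK-16 replicate 1 (1.03) or 3 (0.81). Without CM + Rux + IKK-16 replicate 1, 4 of the 27 were called in place of 7. Nfil3 stood at 143, 190 and 113 CPM with IKK-16, below all CM + Rux samples (199 to 298 CPM), and was not called (-0.71, adjusted p = 0.077, edgeR). It was called with the replicate number as a block (-0.71, adjusted p = 0.020), by DESeq2 (-0.70), without the filter on low counts (-0.71) and without CM + Rux + IKK-16 replicate 2 (-0.92). Ciart (-0.42), Npas2 (-0.20) and Bhlhe40 (-0.09) were not called.

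At 2 h against 4 h, 6 of the 27 were higher (22.2%, beside 12.6% of all genes) and 5 lower (18.5%, beside 10.7%). Npas2 had 28 and 16 reads at 2 h and 5, 7 and 1 at 4 h (2.65 ± 0.47, adjusted p = 0.00069, edgeR). Noct stood at 111 and 131 CPM at 2 h, above every sample of every other group, and at 41.2, 52.0 and 44.2 CPM at 4 h (1.40 ± 0.16). Bhlhe40 (0.80), Cipc (0.69), Fbxw11 (0.59) and Rora (0.52) were also higher, Fbxw11 being an F-box protein that marks period proteins for degradation. Ciart stood at 0.855 and 1.46 CPM at 2 h, close to the DMEM samples (0.886 and 1.43 CPM), and at 5.63, 7.28 and 4.98 CPM at 4 h (-2.45 ± 0.36, adjusted p = 0.00016, edgeR). Btrc (-1.31), Usp2 (-1.11), Tipin (-0.79) and Nampt (-0.74) were lower too. The calls of Bhlhe40, Cipc, Rora and Usp2 were each lost under some alternatives. Without CM + Rux 2 h replicate 3, Rora came to 0.24, Cipc to 0.55, Usp2 to -1.16 and Bhlhe40 to 0.98, none of them called, which left 7 of the 27 in place of 11. Bhlhe40 was also not called without CM + Rux 2 h replicate 2 (0.60) or CM + Rux replicate 1 (0.68) or 3 (0.63), Usp2 not without CM + Rux 2 h replicate 2 (-1.05) or CM + Rux replicate 3 (-0.88), and Rora not without CM + Rux replicate 2 (0.45) or 3 (0.48). In a fit to the compared groups alone Bhlhe40 (0.80) and Rora (0.52) were not called, in limma-voom Rora (0.45) and Usp2 (-1.03) were not, and with total counts alone Rora (0.45) was not. Nfil3 (-0.36), Bhlhe41 (-0.28) and Tef (-0.18) were not called.

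Of 6 genes known as targets that REV-ERB receptors repress (Il6, Ccl2, Cx3cr1, Mmp9, Il1b and Nlrp3), 5 were higher and Cx3cr1 was lower in CM against DMEM, beside 20.9% of all genes called higher and 24.1% called lower. Il6 had 0 reads in each DMEM sample and 143 to 345 CPM in CM, at least 1782-fold higher against the floor of 3 reads in the shallower DMEM sample. Ccl2 (6.57), Il1b (5.86), Nlrp3 (3.23) and Mmp9 (1.31) followed on the log2 scale, and Cx3cr1, the fractalkine receptor, fell by 1.59. The 2 DMEM samples lay far apart in some of these genes. Without DMEM replicate 1 the change was 5.88 for Ccl2, 6.84 for Il1b and 2.30 for Mmp9, and without DMEM replicate 2 it was 7.53, 5.28 and 0.75. In CM + Rux against DMEM + Rux the 5 were higher, beside 22.3% of all genes, and Cx3cr1 was not called (0.53, adjusted p = 0.22, edgeR). Ccl2 (6.45) came to 5.72 there without CM + Rux replicate 2. Cx3cr1 was the 1 of the 6 called with ruxolitinib in CM (1.70 ± 0.38, adjusted p = 0.019, edgeR), beside 3.33% of all genes, and was not called without CM replicate 1 (1.80) or 3 (1.40) or CM + Rux replicate 1 (1.53). With IKK-16 Il6 was the 1 of the 6 called (-2.29 ± 0.48, adjusted p = 0.00997, edgeR; -2.89 without CM + Rux + IKK-16 replicate 2), beside 3.66% of all genes called lower, and Ccl2 was called in addition with the replicate number as a block (1.07, adjusted p = 0.018). Mmp9 (-0.57) and Il1b (-0.74) were called lower with IKK-16 without the filter on low counts and in a fit to the compared groups alone, Mmp9 also without DMEM replicate 1 or 2 (both -0.57), and Nlrp3 (-0.63) without CM + Rux + IKK-16 replicate 2. At 2 h against 4 h Il6 (-2.87) and Mmp9 (-0.93) were lower, beside 10.7% of all genes, and Mmp9 was not called without either 2 h sample (-0.84 and -1.05) or without CM + Rux replicate 1 (-0.93) or 2 (-0.84).

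Across the 16 samples, genes with a pattern close to that of each clock gene were found by Pearson's r of log2(CPM + 1) over 11507 genes, given as a description since the samples share media and inhibitors. Nearest to Cry2 were Hcar2 (0.99), a receptor for β-hydroxybutyrate and niacin, Birc3 (0.99), an inhibitor of apoptosis known as an NF-κB target, and Eif3g (0.99). Nearest to Nr1d2 were Tlr13 (0.98), Znrf2 (0.98) and Dio2 (0.98), and nearest to Dbp were Tk2 (0.98), Lrrc56 (0.98) and Cradd (0.97). For Per3 they were Washc1 (0.97), Dguok (0.96) and Zfp862-ps (0.96), for Per1 Sphk2 (0.96), Tpi-rs11 (0.96) and Acvrl1 (0.96), and for Cry1 Rev1 (0.97), Gfpt1 (0.96) and Slc3a2 (0.95). For Arntl they were Fbxo38 (0.95), Cnn2 (0.94) and Ubox5 (0.94), for Nr1d1 H3f3a (0.95), Litaf (0.95) and Isy1 (0.94), for Per2 Ccdc47 (0.94), Zcchc4 (0.91) and Kctd6 (0.89), and for Clock Otud4 (0.93), Iglon5 (0.93) and Rab7-ps1 (0.92). Among the clock genes themselves, r was 0.93 between Per3 and Dbp, 0.90 between Nr1d2 and Dbp and 0.89 between Per3 and Nr1d2, the 3 genes that fell in CM. It was -0.93 between Cry2 and Nr1d2 and -0.71 between Nr1d1 and Nr1d2. The |r| of Clock with the other members reached 0.51, with Cry2.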

How the data were processed

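RNA of 16 BMDM samples was sequenced from stranded TruSeq libraries. Per the labels and methods, the authors trimmed reads with Trimmomatic 0.33, aligned them to GRCm38 with HISAT2 2.1.0 and counted fragments per Ensembl gene by strand with featureCounts 1.6.2, and they deposited raw counts per gene for all samples in 1 table. The deposited table also gives gene positions and exonic length. The columns match the sample labels, and replicate numbers are those of the labels. Whether replicates were separate cultures or animals was not given per sample, so p-values measure the spread between these samples, which may be technical. No pair of replicates agreed within counting noise.

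Gene IDs were matched to symbols by a table of GENCODE IDs (55141 of 55487 IDs, with at most 0.0459% of a sample's counts on unmatched IDs). The filter kept the 12372 genes that exceeded 1 CPM in 2 or more samples. RLE factors were computed and all 6 groups were fitted in 1 model with edgeR 4.0.16 (R 4.3.3), using the quasi-likelihood F test and Benjamini-Hochberg adjustment over all genes tested. Scripts were tested on simulated data. RPKM divides CPM by exonic length. Intervals are at 95%, and counting floors of 3 reads cover counting error only. Promoter sequences are from RefSeq (GRCm38.p6).

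The members and gene lists were chosen with earlier results of these data known. The text names the 10 members, in each comparison up to 3 other clock genes with the largest called change each way, the paralogs and direct regulators Npas2, Rora, Bhlhe40, Bhlhe41, Nfil3, Tef and Ciart, further called genes that were named after their values were seen, 6 REV-ERB targets, and the 3 genes nearest to each member in pattern. Of the other clock genes first listed, 2 are not reported here and are in none of the list's counts. Marker lists of T and NK cells, B cells and fibroblasts summed to 4.81 to 13.1, 0 to 0.233 and 5.73 to 20.9 CPM. The T and NK sum was nearly all Cd4 (4.81 to 13.1 CPM), and the other markers of that list reached at most 0.0552 CPM.

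Samples with the same replicate number deviated together. Of 35 pairs with the same number across groups 34 had a correlation of deviations above 0.1 (median 0.38, lowest -0.01, a pair of 2 groups not compared here), beside a median of -0.13 for other numbers, and all 16 samples matched their own number best. Blocked fits are given where they changed a call. Alternatives were TMM factors and total counts alone, other filters, no fold threshold, an adjusted p under 0.1, the replicate block, a fit to the compared groups alone, limma-voom (limma 3.58.1), DESeq2 1.42.0 and each sample left out in turn. Alternatives for the other clock genes, the REV-ERB targets and the family ratios (a pseudocount of 1 for 0.5, samples left out, same-number differences) were added after the data were seen.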

Additional observations from a re-analysis of the deposited data

How the results depend on the processing

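Over the 10 clock genes, the counts of called genes in CM against DMEM, in CM + Rux against DMEM + Rux and in the 3 ruxolitinib comparisons kept within 1.5 times of the reported counts under all alternatives. With IKK-16 the count of 2 became 1 with total counts alone and 0 to 2 when 1 sample was left out, being 0 without CM + Rux replicate 2 or CM + Rux + IKK-16 replicate 1. At 2 h the count of 3 became 5 with the replicate block, 5 with no fold threshold and 1 to 3 when 1 sample was left out, being 1 without CM + Rux 2 h replicate 3. The replicate block moved no other count of the 10 by over 1.5 times.

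Directions turned only for small differences that were not called. Clock came to -0.21 in CM against DMEM and to -0.072 in CM + Rux against DMEM + Rux with total counts alone. In DMEM + Rux against DMEM, the replicate block gave Per1 0.031, Per3 -0.018 and Cry1 -0.056, and leaving out samples gave Arntl -0.20 to 0.0032, Clock -0.14 to 0.0087, Per3 -0.030 to 0.17, Cry1 -0.18 to 0.23, Nr1d1 -0.32 to 0.73 and Nr1d2 -0.037 to 0.23. In CM + Rux against CM, Dbp came to -0.078 in limma-voom and Dbp and Nr1d1 ranged from -0.18 to 0.47 and from -0.59 to 0.26 without single samples. The difference of the ruxolitinib effect came to 0.12 for Per2 with the replicate block and without single samples ranged from -0.17 to 0.20 for Per2, -0.13 to 0.28 for Cry1, -0.86 to 0.19 for Nr1d1 and -1.01 to 0.032 for Dbp. With IKK-16 the ranges were -0.31 to 0.059 for Per1, -0.24 to 0.48 for Nr1d1, -0.42 to 0.12 for Npas2 and -0.31 to 0.26 for Bhlhe40 (0.0064 with total counts alone). At 2 h they were -0.077 to 0.23 for Per3, -0.70 to 0.43 for Nr1d1 (0.014 in limma-voom) and -0.91 to 0.17 for Bhlhe41. The cause of these turns was not tested.

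Over all genes tested, 412 were called in CM + Rux against CM, 685 without the filter on low counts and 745 with the block. The difference of the ruxolitinib effect was called for 51 genes, against 90 with total counts alone, 349 without the filter, 444 with the block, 234 by DESeq2 and 142 at an adjusted p under 0.1. Without the fold threshold, 1778 in place of 957 were called with IKK-16 and 4726 in place of 2883 at 2 h. Groups of 2 or 3 samples and low counts (16 to 96 reads for Dbp in CM media) limit what the ruxolitinib and IKK-16 comparisons can show.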
